A study of Mus musculus with 2 samples.

Results

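The 9 genes of gp130 cytokine signalling studied here were followed through the first day of mammary involution, the regression of the gland after weaning: the ligand genes Lif, Osm and Il6, the receptor chain genes Lifr, Osmr, Il6ra and Il6st, the transcription factor gene Stat3 and its feedback inhibitor gene Socs3. The members were all probe sets whose platform annotation gave 1 of these symbols and no other, which made 23 probe sets of 9 genes among 18193 named genes. Glands came from female CD1 mice, an outbred stock with no engineered allele named and no agent given, bought at 6 weeks of age and mated; their age when killed is not given in the sources. Litters were set to 6 pups, and pups were taken from the dams by force at day 10 of lactation. The day 0 group is the gland at that moment and the day 1 group is the gland 1 day later. For either day the RNA of 5 mice was combined into a pool and read on 1 Affymetrix mouse expression array, so the spread between mice cannot be seen and no test, error or p-value between days is possible. Whole gland was used, so fewer cells of a type and less RNA per cell cannot be told apart.

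Cytokines of this family act through receptor complexes that share the chain gp130, encoded by Il6st. Leukaemia inhibitory factor binds the Lifr chain, oncostatin M in the mouse binds chiefly the Osmr chain, and interleukin 6 binds the Il6ra chain, each together with gp130. Janus kinases on the receptor phosphorylate Stat3, which enters the nucleus and induces genes that include Socs3, whose protein in turn blocks the receptor and its kinases. In the mouse mammary gland Stat3 is known as a driver of cell death at the start of involution, with Lif as an activator and oncostatin M receptor signalling as a later one.

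A signal is the MAS 5 intensity of a probe set on a linear scale. Ratios are log2 of day 1 over day 0, taken after every signal under 77.7, the median of all signals, was raised to that floor. A gene was measured when its brighter array was above the floor, and a ratio with 1 array at the floor is a bound, written "at least". Over 13239 measured genes the median log2 ratio was -0.12; 10.4% passed 2-fold with the higher signal on day 1 and 13.3% with the higher signal on day 0. Genes with a higher signal made up 43.8% of the genes past 2-fold as deposited, but 72.7% after scaling on ribosomal protein genes and 95.5% after scaling on the hybridisation controls. Those controls, 15 probe sets chosen among those of bioB, bioC, bioD and cre, had a median log2 ratio of -1.16. Scaling on them moved the median of all measured genes to 0.97. The ribosomal protein scaling moved it to 0.27. Ratios of the members are therefore set beside those of all genes. The highest signals were 108570 on day 0 and 40090 on day 1, and no member came near them. The 3' to 5' signal ratio of beta-actin was 2.50 on day 0 and 1.51 on day 1, while that of Gapdh was 1.52 and 1.48; the part of this difference in any member's ratio was not tested.

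**Figure D1:**
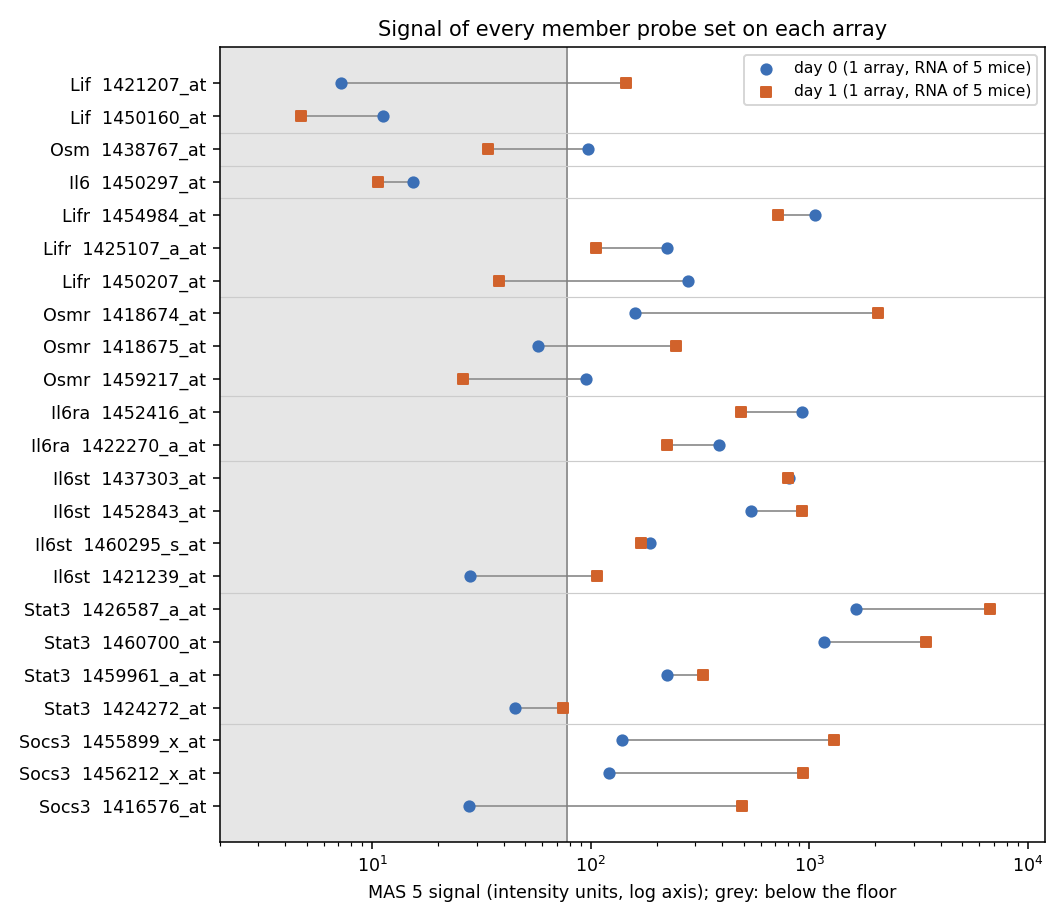
Signal of all 23 member probe sets on the day 0 array (circles) and the day 1 array (squares), on a log axis of MAS 5 intensity units, with the region under the floor of 77.7 in grey. The Socs3, Stat3 and brighter Osmr probe sets lie to the right on day 1, whereas those of Lifr and Il6ra lie to the right on day 0.

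The ligand genes were dim on both days. Il6, which encodes interleukin 6, had 1 probe set with a signal of 15.4 on day 0 and 10.6 on day 1, under the floor on both arrays, so no ratio is given. Lif, which encodes leukaemia inhibitory factor, had a signal of 7.2 on day 0 and 144.9 on day 1 at probe set 1421207_at. This is at least 1.86-fold higher on day 1 (log2 at least 0.90). The other Lif probe set, 1450160_at, read 11.2 and 4.7, below the floor on both days, so the higher Lif value rests on a single probe set. The bound depends on where the floor is set: with a floor at the 25th percentile it was at least 2.70 log2. Osm, which encodes oncostatin M, read 96.8 on day 0, just above the floor, and 33.8 on day 1, which is at least 1.25-fold lower. With that lower floor the Osm log2 ratio was -1.52, and after scaling on the hybridisation controls both its signals lay under the floor. None of the 3 ligand genes was above the floor on both arrays, and neither the Lif nor the Osm bound reached 2-fold as deposited.

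The receptor chains differed in direction. Osmr, the chain to which mouse oncostatin M chiefly binds, had a signal of 159.9 on day 0 and 2060.8 on day 1 at its brightest probe set, 1418674_at. That is 12.9-fold higher on day 1 (log2 3.69), and only 26 of 13239 measured genes had a higher ratio. Another Osmr probe set, 1418675_at, read 57.3 and 245.5 and was at least 3.16-fold higher. The last, 1459217_at, went the other way, from 94.8 to 25.9, and was at least 1.22-fold lower. The day 1 signals of the first 2 Osmr probe sets were thus above their day 0 signals, while the dim 1459217_at was not, and the mean over all 3 was 1.69 log2.

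Lifr, the chain that leukaemia inhibitory factor binds, was lower on day 1 at all 3 of its probe sets. The brightest, 1454984_at, read 1062.5 on day 0 and 716.5 on day 1, a 1.48-fold difference (log2 -0.57). Probe set 1425107_a_at read 224.2 and 105.5, or 2.13-fold lower, and 1450207_at read 279.5 and 37.9, or at least 3.60-fold lower. The size of the Lifr difference thus depended on the probe set, and the mean over the 3 was -1.17 log2. After scaling on the hybridisation controls the brightest Lifr probe set was instead higher, at 0.59 log2.

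Il6ra, the interleukin 6 binding chain, was lower at both of its probe sets. The signals were 921.6 and 486.8 at 1452416_at, a 1.89-fold difference (log2 -0.92), and 384.3 and 224.3 at 1422270_a_at, a 1.71-fold difference. Of the measured genes, 2051 had a lower ratio than Il6ra. Quantile normalization and loess put it just past 2-fold, at -1.04 log2 with both, whereas scaling on the hybridisation controls gave 0.24.

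Il6st, which encodes the shared chain gp130, had no common direction over its 4 probe sets. The brightest, 1437303_at, read 809.8 and 800.1, a log2 ratio of -0.02 that lies close to the median of all measured genes. Probe set 1452843_at read 540.8 and 922, or 1.70-fold higher, and 1460295_s_at read 186.4 and 170.2, or 1.10-fold lower. The dimmest, 1421239_at, read 27.9 and 106.8, at least 1.37-fold higher. No Il6st probe set reached 2-fold as deposited, and the sign of the gene's ratio turned in 5 of 11 alternatives, up to 1.15 log2 after scaling on the hybridisation controls.

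A difference between the log2 ratios of 2 genes does not depend on any single scaling factor of an array. The ratio of Osmr exceeded that of Lifr by 4.26 log2, that of Il6ra by 4.61 and that of Il6st by 3.71. Median centring and scaling on the hybridisation controls or ribosomal protein genes use a single factor, so they left these gaps as they were. Under quantile normalization and loess the gap between Osmr and Lifr was 4.47 and 4.29 log2. Over all 11 alternatives it ranged from 2.75 to 4.47. In all 11 alternatives the Osmr ratio was above those of Lifr, Il6ra and Il6st. The gap between Osmr and Il6st narrowed to 1.42 log2 when all probe sets were averaged.

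**Figure D2:**
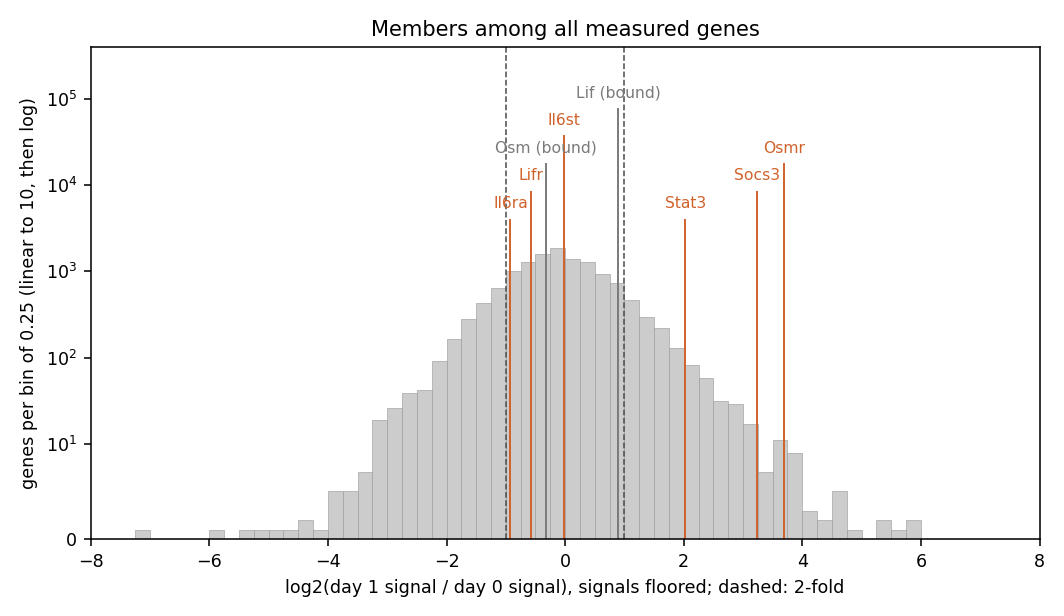
Histogram of log2 ratios of the 13239 measured genes in bins of 0.25, with the count axis linear to 10 and logarithmic above, and the 8 measured members marked by lines whose heights only separate the labels. Osmr (3.69), Socs3 (3.23) and Stat3 (2.03) lie in the upper tail, and the other members are drawn within 2-fold of no difference. Lif and Osm are drawn at bounds, so their differences may be larger.

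Stat3, the transcription factor that these receptors activate, had a signal of 1641.4 on day 0 and 6682.6 on day 1 at probe set 1426587_a_at. It was 4.07-fold higher on day 1 (log2 2.03), and 248 measured genes had a higher ratio. Probe set 1460700_at read 1170.5 and 3437.8, or 2.94-fold higher. A dimmer one, 1459961_a_at, read 223.9 and 326.6, or 1.46-fold higher, and 1424272_at read 44.9 and 74.6, under the floor on both arrays. The 3 measured Stat3 probe sets were higher on day 1, with sizes that differed between them, and no ratio is given for 1424272_at. These values are transcript levels, and phosphorylated Stat3 protein was not measured.

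Socs3, the feedback inhibitor, was higher on day 1 at all 3 probe sets. The signals were 138.4 and 1300.4 at 1455899_x_at, a 9.40-fold difference (log2 3.23) exceeded by 43 measured genes. They were 121.4 and 939.9 at 1456212_x_at, or 7.74-fold, and 27.7 and 494 at 1416576_at, at least 6.36-fold. The suffix x marks probe sets with probes that also match other sequences; 1416576_at carries no such mark and had the same direction. The ratio of Socs3 exceeded that of Stat3 by 1.21 log2 as deposited and by 0.35 log2 with a floor at the 75th percentile, which lies above the day 0 signal of Socs3. Osmr, Stat3 and Socs3 were at least 2-fold higher in each of the 11 alternatives of scaling, floor and probe set.

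The promoters of Socs3, Osmr and Stat3 are shown because these members were past 2-fold in the same direction. Each is the 250 bases before the transcription start from RefSeq (GRCm38.p6), 5′ to 3′ on the gene's strand. Capitals mark matches to the Stat palindrome TTCNNNGAA, which reads the same on both strands.
Socs3, chr11:117969367-117969616, strand -: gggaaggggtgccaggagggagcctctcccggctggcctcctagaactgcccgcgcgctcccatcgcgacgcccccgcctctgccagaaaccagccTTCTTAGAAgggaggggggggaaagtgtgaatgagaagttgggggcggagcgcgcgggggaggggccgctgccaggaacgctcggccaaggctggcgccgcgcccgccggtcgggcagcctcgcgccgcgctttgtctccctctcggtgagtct
Osmr, chr15:6874314-6874563, strand -: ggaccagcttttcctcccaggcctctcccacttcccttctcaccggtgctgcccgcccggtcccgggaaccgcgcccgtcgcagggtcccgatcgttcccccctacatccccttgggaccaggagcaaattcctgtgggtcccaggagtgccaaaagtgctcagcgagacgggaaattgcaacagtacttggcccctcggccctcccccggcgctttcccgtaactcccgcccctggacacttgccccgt
Stat3, chr11:100939541-100939790, strand -: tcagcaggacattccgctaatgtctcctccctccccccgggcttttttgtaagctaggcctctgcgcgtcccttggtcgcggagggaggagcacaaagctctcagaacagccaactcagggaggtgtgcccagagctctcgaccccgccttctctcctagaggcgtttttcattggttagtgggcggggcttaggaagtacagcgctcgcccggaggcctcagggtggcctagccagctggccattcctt
The Socs3 window held 1 match, TTCTTAGAA, whose first base lies 154 bases before the start, and the Osmr and Stat3 windows held none. RefSeq promoters were found for 8 of the 9 members, all but Osm, with 9 windows in all because Lifr has 2. The other 6 windows, of Lif, Il6, Lifr, Il6ra and Il6st, held no match. Of 32851 promoters of this length in the table, 7.02% held the palindrome. The stricter form TTCCNGGAA, a subset of the first, was in 0 of the 9 windows and in 0.913% of all. A match is a run of letters, not a measured binding site.

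In all, 3 of the 9 genes were at least 2-fold higher on day 1, 0 were at least 2-fold lower, 5 had a value or a bound within 2-fold, and Il6 was not measured. The background was 10.4% of measured genes higher and 13.3% lower. On both arrays 6 members cleared the floor, and among all genes that did so 11.6% were higher and 11.1% lower. Of the 23 probe sets, 20 were measured and 13 cleared the floor on each array. At least 2-fold higher were 7, from Osmr, Stat3 and Socs3, against 9.08% of all measured probe sets, and 2, both of Lifr, were at least 2-fold lower, against 13.1%. Among those 13, 5 were higher and 1 was lower, where all such probe sets had 10.6% and 11.4%. The probe sets of 1 gene share its transcript and are not replicates. Where a gene had more than 1 probe set bright enough on each array (3943 genes), its log2 ratios scattered around their mean with a pooled SD of 0.56, a spread of probe sets and not of mice.

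**Figure D3:**
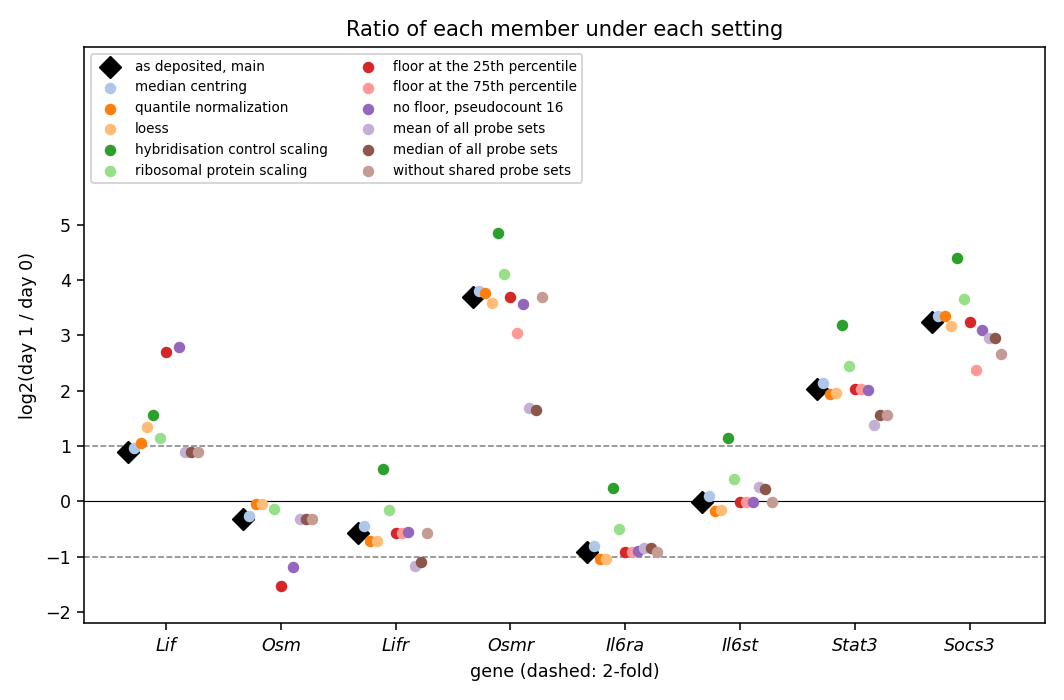
Log2 ratio of day 1 over day 0 of the 8 measured members as deposited (black diamonds) and under 11 alternatives of scaling, floor and probe set (coloured points), with dashed lines at 2-fold. Osmr, Stat3 and Socs3 stay above the upper line throughout, while Lifr, Il6ra and Il6st cross 0 under scaling on the hybridisation controls.

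Of 80 other genes of the pathway, in 7 lists, 70 had a probe set with that symbol alone and 66 were measured; 21 passed 2-fold with a higher and 8 with a lower day 1 signal, with a median of 0.41 log2 beside -0.12 over all measured genes. The lists were compiled with earlier results of these arrays known. Counts past 2-fold are read beside 10.4% of all measured genes higher and 13.3% lower. Among other ligands of the family, 4 of 5 on the array were measured, 0 were higher and 1 was lower. That was Clcf1, a cardiotrophin-like cytokine, with signals of 169.3 and 61.4 (log2 -1.12 as a bound, so at least 2.18-fold lower); its other probe set lay at 0.37 log2. Clcf1 was within 2-fold under quantile normalization (-0.97), loess (-0.85), ribosomal protein scaling (-0.95) and hybridisation control scaling (-0.30), and with its probe sets averaged. Ctf1, which encodes cardiotrophin 1, read 266.7 and 167.7 (log2 -0.67, but 0.49 after scaling on the hybridisation controls), and Il11 read 114.4 and 28. Of the other receptor chains 2 of 3 were measured and within 2-fold, Cntfr at -0.88 log2 (0.28 after the same scaling) and Il27ra at a bound of 0.98. Il27ra passed 2-fold in 6 alternatives, the 5 other scalings (1.05 to 1.63) and the floor at the 25th percentile (1.08).

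Janus kinases transmit the receptor signal to the Stat proteins. Of 8 measured kinase and other Stat genes, 0 were at least 2-fold higher and 1 was lower, beside 10.4% and 13.3% of all measured genes. Their median of -0.24 log2 was above 0 under 3 alternatives, among them scaling on the hybridisation controls (0.92) and on ribosomal protein genes. Stat5a, the factor that carries the prolactin signal in lactation, had signals of 2869.2 and 900.2 (log2 -1.67, or -0.51 after scaling on the hybridisation controls). Stat2 (-0.86) and Stat5b (-0.82) followed as deposited, but were at 0.30 and 0.35 after scaling on the hybridisation controls. The kinase genes Jak1 and Jak2, named after their values were seen, had log2 ratios of 0.51 and 0.72. The 3 measured probe sets of Jak1 ranged from -0.60 to 0.51, and the 2 of Jak2 from 0.67 to 0.72. The other kinase genes, Jak3 and Tyk2, were at -0.36 and -0.12.

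Inhibitors other than Socs3 differed in direction as deposited, in counts set beside 10.4% of all measured genes at least 2-fold higher and 13.3% lower. Of 13 measured, 2 were at least 2-fold higher, 1 was lower and 10 were within 2-fold, with a median of 0.15 log2 that was just under 0 with quantile normalization and without shared probe sets and 1.31 after scaling on the hybridisation controls. Socs2, an inhibitor of growth hormone and prolactin signalling, read 1372.4 and 581.4 (log2 -1.24), within 2-fold after scaling on the hybridisation controls (-0.076) or ribosomal protein genes (-0.82) and with the mean of all its probe sets. The phosphatase gene Ptpn2 read 1072.5 and 2813.3 (1.39), but a probe set not shared between transcripts gave -0.059. Pias4 had a log2 ratio of 1.20, or 0.79 as the mean of its probe sets. Socs1, the closest relative of Socs3, read 61 and 13.2 and was under the floor on both arrays. In the adaptor branch, which links gp130 to the MAP kinases, 2 of 6 passed 2-fold with a higher signal and 0 with a lower one. They were Ptpn11 (1.30 log2), the phosphatase Shp2, and the docking protein gene Gab1 (1.24), whose probe sets ranged from -0.55 to 1.30 and from -0.12 to 2.09; Shc1 was at 0.70.

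Transcription factor and survival genes described as Stat3 targets differed in both directions as deposited. Among 18 measured, 9 had a day 1 signal at least 2-fold higher, 5 were lower and 4 within 2-fold, where 10.4% of all measured genes were higher and 13.3% lower. The list's median was 0.99 log2, and 2.16 after scaling on the hybridisation controls. Ier3, an early response gene, read 597.7 and 3075.2 (2.36), and Cebpd, a transcription factor of the acute phase that is active in involution, read 2041.7 and 6785.9 (1.73). Bcl3 (1.48, or 0.95 with a floor at the 75th percentile), a partner of NF-kappaB, and Bcl2l1 (1.63), which encodes the survival protein Bcl-xL, were also higher; they were named after their values were seen. On the lower side the kinase gene Pim1 read 1437.5 and 389.4 (-1.88) and its relative Pim3 was at -1.38. Vegfa (-1.04), Ccnd1 (-1.05) and Nfkbiz (-1.06) were just past 2-fold as deposited. After scaling on the hybridisation controls none of these 5 was past 2-fold: Pim1 was at -0.72, Pim3 at -0.22, and Vegfa, Ccnd1 and Nfkbiz were above 0. Pim3 was also within 2-fold after ribosomal protein scaling (-0.96). Among 15 further targets known from the involuting gland, 8 passed 2-fold with a higher day 1 signal and 0 with a lower one, with a median of 1.06 log2. Hp, which encodes haptoglobin, read 113.2 and 1628.9 (3.85). The serum amyloid genes Saa2 (3.76) and Saa1 (3.63) followed; these paralogs are nearly identical, and the signal of 1 may come from the other. Among the 7 within 2-fold, Lcn2 read 28127.8 and 31116, near the top of the range on day 1, and the cathepsin gene Ctsb was at 0.19 log2, with probe sets up to 2.27.

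**Figure D4:**
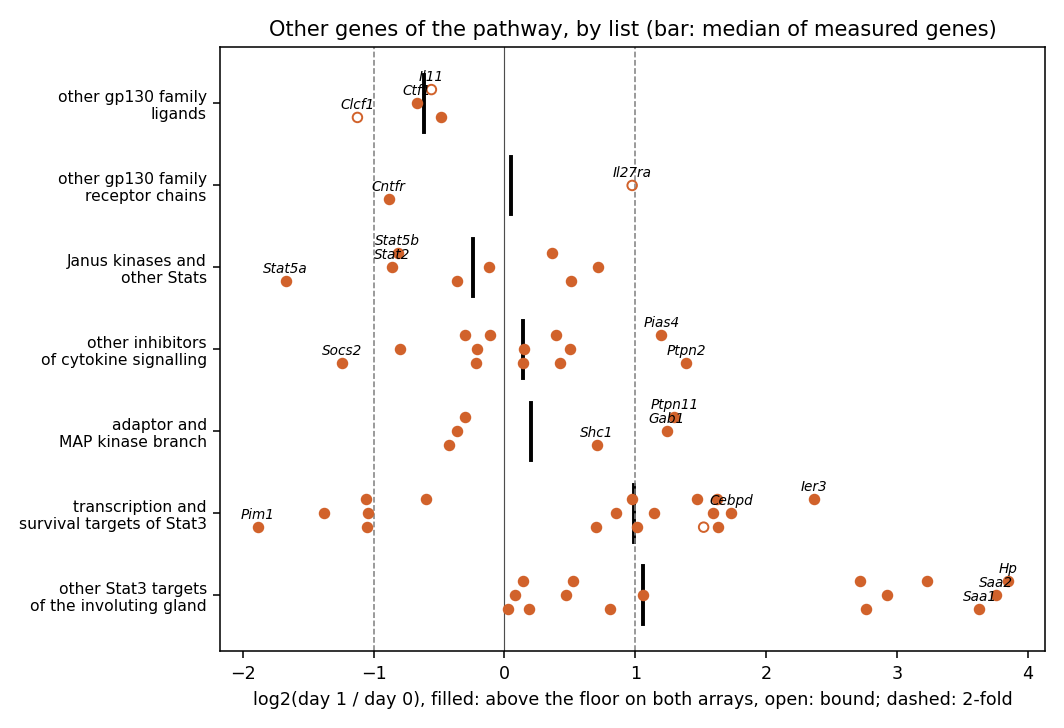
Log2 ratio of day 1 over day 0 of the 66 measured genes in the 7 lists of other pathway genes, 1 point a gene, with filled points above the floor on both arrays, open points for bounds and black bars for list medians. Points past the dashed lines differ by at least 2-fold; the Stat3 target lists reach the furthest right, and Pim1 and Stat5a lie furthest left.

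Cell type markers differed in direction and size between lists, and their part in the values above was not tested. Marker counts past 2-fold are read beside 10.4% of all measured genes higher and 13.3% lower. The gland's identity was plain in its milk protein genes, 5 of 5 measured, whose summed signal was 426246 on day 0 and 177721 on day 1; all 5 were at least 2-fold lower as deposited, but their median was 0 after quantile normalization. Among 6 luminal epithelial markers 4 were higher by at least 2-fold and 1 was lower, with summed signals of 37981 and 72025. The keratin genes Krt8 (2.91 log2), Krt18 (2.66) and Krt19 (2.92) and the cadherin gene Cdh1 (2.77) were higher beside Osmr, Stat3 and Socs3, and Elf5 was lower (-1.08). Of 8 macrophage markers 7 were measured, 3 higher and 1 lower, with sums of 5767.5 and 7246.5; Itgam was under the floor on both days. The 6 neutrophil markers on the array had sums of 468.7 and 728.1, and of these 3 were measured, while Cxcr2, Elane and Mpo were under the floor on both days. S100a8 read 73.9 and 386 and was the 1 marker at least 2-fold higher, whereas Csf3r read 151 and 45.5 and 0 were at least 2-fold lower. Of 5 lymphocyte markers 4 were higher and 1 lower, with sums of 424.5 and 939.6. Of the 4, Cd3d, Cd3g and Cd79a were bounds, under the floor on day 0 (5, 24.9 and 38.8). The lower marker was Cd3e, which read 273.1 and 116.1, so the CD3 genes differed in direction. The list's median was -0.047 with a floor at the 75th percentile. Of 5 mast cell markers 1 was at least 2-fold higher, Kit, which is also expressed in mammary epithelium. Kit read 29.3 and 1517 and made up most of the list's day 1 sum (sums 625.6 and 2063). The 2 mast cell markers above the floor on both arrays were lower within 2-fold. They were Cpa3 (238.3 and 147.3) and Cma1 (312.2 and 187.2). Mcpt4 and Tpsb2 were under the floor on day 0 and higher on day 1, as bounds within 2-fold. Fibroblast (sums 18639 and 22698), myoepithelial (18751 and 19635) and adipocyte markers (18659 and 20193) had 0 past 2-fold in either direction, and of 6 endothelial markers (sums 1529 and 1145) 5 were measured, of which 1 was lower, and Vwf was under the floor on both days.

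The genes with the most similar pair of signals were found by Euclidean distance of log2 signals over the 2 arrays. For Stat3 they were Clic1 (1732 and 6708.4, distance 0.078) and Gda (1545.3 and 6859.8, distance 0.095). For Socs3 they were Ahr (149.5 and 1287.9, distance 0.11) and 2310030G06Rik (133.5 and 1195.5, distance 0.13). For Osmr they were Klf6 (180.5 and 1932.4, distance 0.20) and Krt7 (144.8 and 2575.3, distance 0.35). With 2 arrays this likeness rests on 2 values a gene.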

How the data were processed

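Whole mammary gland RNA, pooled from 5 mice for each day, was read on 1 array a day. The deposited values are probe set intensities made by the authors with the Affymetrix Microarray Suite 5.0 statistical algorithms (MAS5), per the labels' protocols and the submitters' processing notes; their scaling target is not stated in these sources. Both arrays had a mean of 250 after 2% was trimmed at each end. Scanner files and detection calls were not used here. Of 45101 probe sets, 64 controls were left out; 34945 had 1 symbol, 932 several and 9160 none here. Symbols were updated through gene identifiers to RefSeq (GRCm38.p6), which held 34741 of them; those with several were not used.

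The probe set brightest on average stood for its gene, and was held under other scalings. Other settings were median centring, quantile normalization, loess (span 0.3), scaling on hybridisation controls below 50% of the highest signal or on 47 ribosomal protein genes, floors at the 25th and 75th percentile, a pseudocount of 16 with no floor, the mean or median of all probe sets, leaving out probe sets with the suffix s, x or a, and thresholds of 1.5-fold and 3-fold. Named genes were all members, the 3 largest ratios of each pathway list, every gene in a count of 5 or fewer where stated, and the 2 nearest genes of Stat3, Socs3 and Osmr. Members and lists were chosen with earlier results of these data known. The number of arrays limits the precision. Functions were tested on simulated data. Python 3.11.15, numpy 2.4.6, pandas 2.3.3 and statsmodels 0.14.6 were used.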

Additional observations from a re-analysis of the deposited data

How the results depend on the processing

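With 1 array a day there is no replicate to leave out, and no paired analysis was possible because each group holds 1 pooled sample. Osmr, Stat3 and Socs3 were at least 2-fold higher in all 11 alternatives of scaling, floor and probe set. Their log2 ratios went from 1.66 to 4.85, 1.37 to 3.19 and 2.38 to 4.39. The count of members at least 2-fold higher was 5 under hybridisation control scaling and within 1.5 times the main count elsewhere. Under hybridisation control scaling 48.7% of all measured genes were at least 2-fold higher, against 10.4% as deposited. The count of members at least 2-fold lower, 0 as deposited, was 1 under quantile normalization, loess, a floor at the 25th percentile, no floor, the mean or median of all probe sets, and a 1.5-fold threshold. In these settings the share of all measured genes called lower went from 10.6% (loess) to 27.2% (1.5-fold threshold). Lif passed 2-fold under quantile normalization (1.05), loess (1.34), hybridisation control scaling (1.56), ribosomal protein scaling (1.14), a floor at the 25th percentile (2.70) and no floor (2.79). Osm passed it with the floor at the 25th percentile (-1.52) and no floor (-1.18), Il6ra under quantile normalization and loess (-1.04 each), and Lifr with the mean (-1.17) or median (-1.09) of its probe sets. Il6st was at 1.15 under hybridisation control scaling. Under it 26 of 95 gene, gap and list values had the other sign, among them Lifr (0.59) and Il6ra (0.24). Of the 26, those past 2-fold in either setting were Il6st, Tyk2 (1.04), Socs4 (1.05), Vegfa (0.12), Ccnd1 (0.11) and Nfkbiz (0.11). The gap of Osmr over Socs3, 0.46 as deposited, was -1.26 with the mean and -1.29 with the median of all probe sets, Ptpn2 was at -0.059 without shared probe sets, the milk protein median was 0 under quantile normalization and the lymphocyte median was -0.047 with a floor at the 75th percentile.

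Of the member probe sets, 7 were higher and 2 lower as deposited, beside 9.08% and 13.1% of all measured probe sets. For the other settings the shares set beside these counts are of genes, not of probe sets. Under hybridisation control scaling 13 were higher, where 48.7% of all measured genes were at least 2-fold higher. Without shared probe sets 4 were higher, beside 9.56% of all measured genes, and fewer member probe sets were left. The count lower was 1 under median centring, hybridisation control scaling, ribosomal protein scaling, a 3-fold threshold and without shared probe sets. Of all measured genes, 11.5%, 2.28%, 7.66%, 4.33% and 13.6% were lower in these settings, in that order. The count of member probe sets lower was 4 with the floor at the 25th percentile (26.0% of genes lower) and at 1.5-fold (27.2%). With the floor at the 75th percentile it was 0 (7.72%). Over all measured genes, 1374 were higher and 1764 lower as deposited; 6292 and 295 under hybridisation control scaling, 2658 and 998 under ribosomal protein scaling, 852 and 606 with the floor at the 75th percentile, 2699 and 3601 at 1.5-fold and 510 and 573 at 3-fold; 4306 were lower with the floor at the 25th percentile and 3051 with no floor. Of 1034 comparisons of gene, gap and list values with an alternative, 857 kept their sign and their side of 2-fold, 44 were no longer past 2-fold with the same sign, and 64 came to pass it with the same sign. In the other 69 the sign changed or the value came to 0, in 58 of them with both values within 2-fold and in 11 with a value past it. The cause of these changes was not tested. Signals near the floor limit the ligand genes most.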
